A study of Mus musculus with 2 samples.

Results

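The mitosis genes described here are 37 genes chosen by symbol, out of the 32285 genes of the files. They code for the cyclins and kinases that drive cells into mitosis, the machinery that separates the chromosomes and splits the cell, and proteins that pack chromosomes. All 37 had UMIs (unique molecular identifiers, each marking 1 captured RNA molecule) in the cells of both days. No measured value entered their choice, but results of these data were known when they were listed.

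The study followed acute injury of the quadriceps, caused by injection of BaCl2, a salt that kills muscle fibres and spares part of the tissue needed to rebuild them. Mononuclear cells of wild-type (WT) C57BL/6J male mice, 14 weeks old, were taken at day 1 and at day 3 post-injury. The cells of 5 mice were pooled for each time point, cryopreserved, thawed and made into 1 library of 3′ single-cell RNA-seq. The question is how far mitosis genes were expressed in the macrophages, monocytes, dendritic cells, stromal cells and myogenic cells of each day. With 1 library per day no test between days was possible, no mouse can be told from another, and every interval below is a 95% interval that covers counting error only.

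The day 1 library held 74852240 UMIs and the day 3 library 102565783. After limits of at least 1000 UMIs, at least 200 genes and at most 7.5% mitochondrial UMIs, 6735 cells of day 1 and 4627 of day 3 remained, with medians of 9389 and 14548 UMIs. The mitochondrial limit left out 277 cells (3.95%) on day 1 and 1804 (28.1%) on day 3. The libraries shared 0 cell barcodes. The list of possible barcodes also differed in length between the files, 737280 on day 1 and 6794880 on day 3, so that a difference in library chemistry and the day cannot be told apart. Cell classes came from clusters that were named from marker genes. The mitosis genes were left out of the features used for clustering. A cell cycle score that draws on some of them was regressed out before, so the classes are not fully independent of these genes. The names end in -like.

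Cells divide by copying their DNA and then passing through mitosis, when Cdk1 bound to cyclin A or B condenses the chromosomes and sets up the spindle. The anaphase-promoting complex then marks the cyclins for destruction, and the chromosomes part. Mitosis genes are transcribed late in the cycle and are largely silent in cells at rest, so their RNA marks dividing cells. In injured muscle, early macrophages come mostly from blood monocytes, while satellite cells (muscle stem cells) and fibro-adipogenic progenitors, a stromal cell, are known to divide in the first days.

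Many promoters of such genes share short elements near the start of transcription, the cell cycle genes homology region (CHR), of the form TTTGAA or TTTAAA, and CCAAT boxes. RefSeq promoter windows of GRCm38.p6, from 250 bases before to 50 bases after the start, were given for 31 of the 37 genes, 33 windows in all, since *Ect2* and *Prc1* had more than 1. No window was used for *Aurkb*, *Smc4*, *Kif20a*, *Stmn1*, *Tpx2* and *Ccna2*. TTTGAA and TTTAAA were searched on both strands, which adds TTCAAA, and CCAAT was searched as CCAAT or ATTGG. The motifs were counted independently of each other, so that neighbours may share a base. The 130 bases just before the start are shown for 5 genes of different roles, each immediately upstream of the first exon and read 5′ to 3′ on the strand of the gene, with every match in capitals.
*Cdk1* (chr10:69352913-69353042, minus strand): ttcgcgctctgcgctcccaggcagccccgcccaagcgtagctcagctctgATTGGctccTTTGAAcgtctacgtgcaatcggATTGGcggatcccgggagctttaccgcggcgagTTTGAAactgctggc
*Ccnb1* (chr13:100786487-100786616, minus strand): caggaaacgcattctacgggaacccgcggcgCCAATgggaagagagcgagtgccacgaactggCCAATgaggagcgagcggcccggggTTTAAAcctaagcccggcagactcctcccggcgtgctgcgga
*Cdc20* (chr4:118437344-118437473, minus strand): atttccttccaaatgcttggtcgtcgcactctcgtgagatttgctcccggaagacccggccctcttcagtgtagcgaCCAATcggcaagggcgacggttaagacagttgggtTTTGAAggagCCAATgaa
*Ube2c* (chr2:164769799-164769928, plus strand): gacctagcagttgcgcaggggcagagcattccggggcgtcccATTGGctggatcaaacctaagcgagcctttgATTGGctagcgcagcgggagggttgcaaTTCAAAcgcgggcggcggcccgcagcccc
*Top2a* (chr11:99024190-99024319, minus strand): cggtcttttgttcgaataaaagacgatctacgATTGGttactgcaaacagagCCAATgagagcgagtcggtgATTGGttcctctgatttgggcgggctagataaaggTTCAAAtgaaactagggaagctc

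In *Cdk1* a TTTGAA began 15 bases and another 71 bases before the start. *Ccnb1* held TTTAAA 42 bases before the start, with CCAAT boxes at 67 and 99 bases. *Cdc20* held TTTGAA at 18 bases, between CCAAT boxes at 8 and 53 bases. In all, 28 of the 31 genes (90.3%) held a CHR-type match, against 30.6% of the 27025 genes of the table, where a gene with several windows counts once if any of them holds a match. Within the last 120 bases of the window the shares were 77.4% of the mitosis genes (24) and 11.3% of all genes. A CCAAT box was found for 26 genes (83.9%) against 41.1%. A CHR-type match in the last 120 bases together with 2 or more CCAAT boxes was found for 16 (51.6%), against 1.36% of all genes.

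*Bub1*, *Nusap1* and *Tacc3* were the 3 genes without a CHR-type match in the window. The same 130 bases are shown for *Nusap1* and *Tacc3*, which held neither element.
*Nusap1* (chr2:119618168-119618297, plus strand): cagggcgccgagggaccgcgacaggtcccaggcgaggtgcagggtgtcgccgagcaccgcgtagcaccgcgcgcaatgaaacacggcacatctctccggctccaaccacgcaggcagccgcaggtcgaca
*Tacc3* (chr5:33657998-33658127, plus strand): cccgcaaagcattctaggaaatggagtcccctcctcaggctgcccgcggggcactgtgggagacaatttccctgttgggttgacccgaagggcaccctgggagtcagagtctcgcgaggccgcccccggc

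The absence of these letters from the window says nothing about which factors bind. In macrophage-like cells, described next, *Nusap1* and *Tacc3* had log2 ratios of day 3 over day 1 of 6.97 and 4.37. The genes with the smallest ratios there, *Hmgb2*, *Cenpa* and *Ckap2l*, held both elements.

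Macrophage-like cells were the largest class, 2708 on day 1 and 2167 on day 3, with medians of 11494 and 16423 UMIs per cell. The summed UMIs of the 37 genes made up 207 CPM (UMIs scaled to 1000000 UMIs of the class, interval 202 to 212) on day 1 and 1823 CPM (1809.7 to 1837) on day 3. The log2 ratio of day 3 over day 1 was 3.14 (3.1 to 3.18). Taken gene by gene, 36 of the 37 were at least 2-fold higher on day 3 and 0 were at least 2-fold lower. *Hmgb2*, at a log2 ratio of 0.95, was the other one. The median log2 ratio of the 37 was 5.37. Among the 11385 genes with at least 50 UMIs in this class over both days, 29.0% were at least 2-fold higher on day 3, 5.83% were at least 2-fold lower, and the median log2 ratio was 0.48. A gene could pass this filter through day 3 alone, as *Ccna2*, *Plk1*, *Ttk* and *Anln* did.

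**Figure D1:**
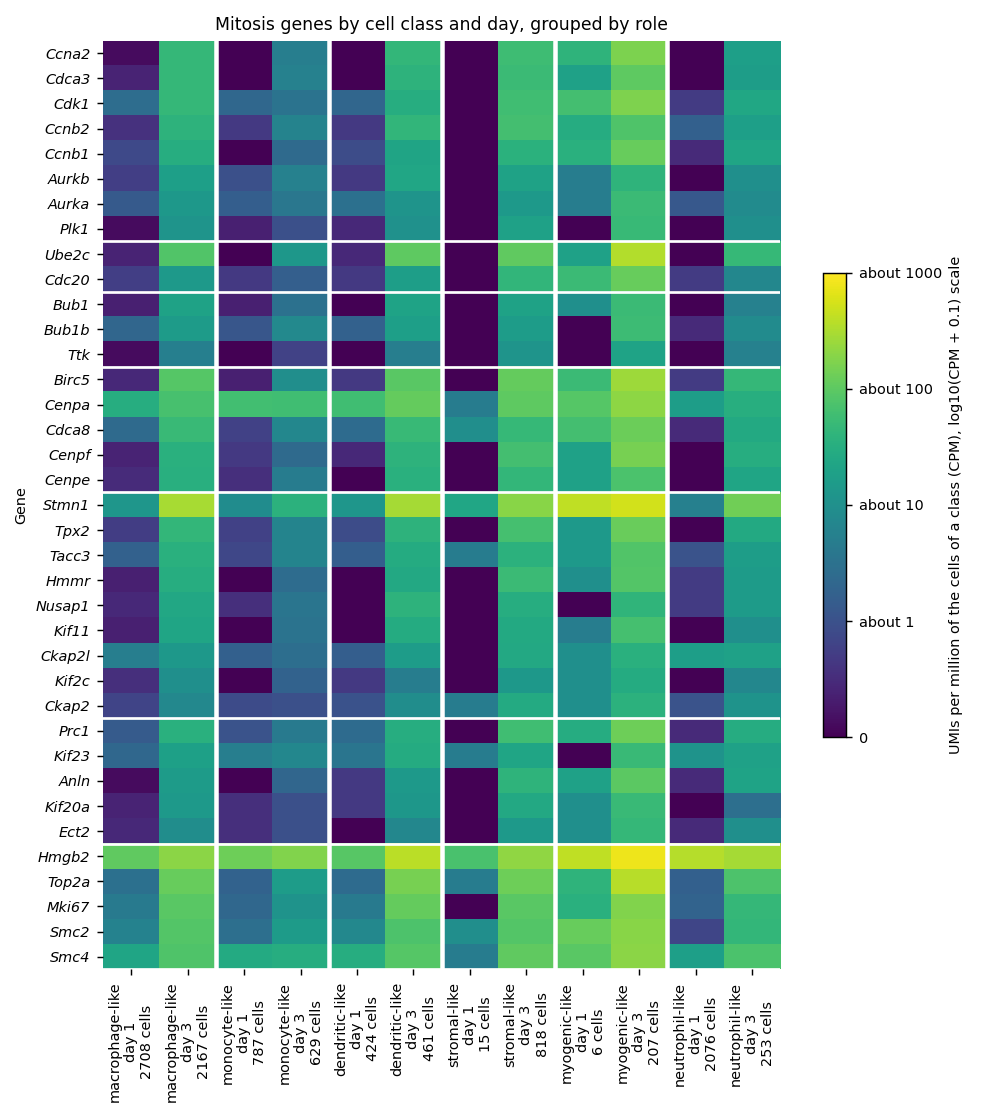
Heat map of the level of each mitosis gene (rows, grouped by role) in 6 cell classes on day 1 and day 3 (columns), in CPM of the UMIs summed over the cells of a class, on a log10(CPM + 0.1) colour scale. Most rows are dark on day 1 and light on day 3 in macrophage-like, dendritic-like and stromal-like cells, while the monocyte-like columns stay darker on day 3 than those of the other classes and the myogenic-like columns are the lightest.

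Cyclins and mitotic kinases together went from 5.50 CPM on day 1 to 249.7 CPM on day 3, a log2 ratio of 5.50 (5.29 to 5.73). *Cdk1*, the kinase that starts mitosis, had 85 UMIs on day 1 and 1734 on day 3, which is 2.61 CPM (2.08 to 3.23) and 45.3 CPM (43.2 to 47.5), a log2 ratio of 4.11 (3.80 to 4.45). Its cyclin partners had few UMIs on day 1. *Ccna2* (cyclin A2) had 1 UMI on day 1 and 1767 UMIs or 46.2 CPM on day 3, a log2 ratio of 9.97 with an interval of 8.07 to 15.86. *Ccnb1* (cyclin B1) had 22 and 1191 UMIs, a log2 ratio of 5.49 (4.92 to 6.21). For *Ccnb2* (cyclin B2) the counts were 9 and 1454, a ratio of 7.03 (6.17 to 8.24). Each of the cyclins was thus near 0 on day 1, when 32565717 UMIs were read from this class.

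*Plk1*, a kinase needed for spindle assembly, had 1 UMI on day 1 and 448 UMIs (11.7 CPM) on day 3. *Aurka* (Aurora A, a centrosome kinase) had 41 and 514 UMIs, a log2 ratio of 3.40 (2.96 to 3.91). *Aurkb* (Aurora B, the kinase of the chromosomal passenger complex) had 15 and 677 UMIs, a ratio of 5.22 (4.53 to 6.11). *Cdca3*, which helps trigger mitotic entry, had 5 and 1767 UMIs, a ratio of 8.10 (7.01 to 9.86). *Aurka* had the smallest ratio of the group and *Ccna2* the largest, with intervals that did not overlap.

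The genes that act with the anaphase-promoting complex had the highest ratio of any role, 0.614 CPM on day 1 and 95.8 CPM on day 3, a log2 ratio of 7.25 (6.66 to 8.0). *Ube2c*, the ubiquitin-conjugating enzyme of the complex, had 5 UMIs on day 1 and 3122 on day 3, or 0.154 and 81.6 CPM. *Cdc20*, its activator, had 15 and 544 UMIs, or 0.461 and 14.2 CPM, a ratio of 4.90 (4.21 to 5.80). *Cdc20* thus had more of the role's UMIs on day 1 and *Ube2c* more on day 3.

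Spindle checkpoint genes went from 2.15 to 41.2 CPM, a log2 ratio of 4.25 (3.92 to 4.63). *Bub1*, a kinase that holds the checkpoint at kinetochores, had 4 and 778 UMIs. *Bub1b* (BubR1), which inhibits the anaphase-promoting complex, had 65 and 596 UMIs, and *Ttk* (the kinase Mps1) had 1 and 202. Their log2 ratios were 7.2 (6.01 to 9.25) for *Bub1*, 2.95 (2.59 to 3.36) for *Bub1b* and 6.84 (4.93 to 12.74) for *Ttk*. *Bub1b* had the most UMIs of the group on day 1 and the smallest ratio.

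Genes of the centromere and the passenger complex went from 33.8 to 276.8 CPM, a log2 ratio of 3.03 (2.95 to 3.13). The low ratio came from *Cenpa*, the histone H3 variant of centromeres, which already had 1007 UMIs (30.9 CPM) on day 1 and 2635 UMIs (68.9 CPM) on day 3, a log2 ratio of 1.15 (1.05 to 1.26). Its partners in the list were scarce on day 1. *Birc5* (survivin, a passenger protein) had 6 and 3425 UMIs, a ratio of 8.81 (7.80 to 10.37). *Cenpe* (a kinetochore motor) had 7 and 1293, and *Cenpf* (a kinetochore protein) had 5 and 1303. The ratios were 7.2 (6.25 to 8.61) for *Cenpe* and 7.66 (6.57 to 9.42) for *Cenpf*. *Cdca8* (borealin, another passenger protein) lay between, with 75 and 1935 UMIs and a ratio of 4.45 (4.12 to 4.81).

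Spindle genes went from 21.2 to 491.4 CPM, a log2 ratio of 4.54 (4.43 to 4.65). *Stmn1* (stathmin, which destabilizes microtubules) held most of these UMIs, 415 on day 1 and 11647 on day 3, or 12.7 and 304 CPM, a ratio of 4.58 (4.44 to 4.72). *Tpx2*, which activates Aurora A on the spindle, had 14 and 1677 UMIs, a ratio of 6.62 (5.92 to 7.55). *Hmmr*, a spindle protein, had 4 and 1189 UMIs, *Kif11*, the motor that pushes the poles apart, had 4 and 844, and *Nusap1*, a microtubule-bundling protein, had 6 and 959. Their log2 ratios were 7.81, 7.32 and 6.97. *Tacc3*, which strengthens spindle fibres, had 54 and 1320 UMIs, and *Kif2c*, which depolymerizes microtubules at centromeres, had 8 and 367. *Ckap2* and *Ckap2l*, microtubule-binding proteins, had 18 and 273 UMIs and 166 and 523 UMIs. *Ckap2l* had the smallest ratio of the group, 1.42 (1.17 to 1.68), which ranged from 0.94 to 2.63 over the alternative settings.

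Cytokinesis genes went from 3.75 to 91.9 CPM, a log2 ratio of 4.61 (4.36 to 4.89). *Prc1*, which bundles the midzone of the spindle, had 43 and 1318 UMIs, a ratio of 4.69 (4.27 to 5.18). *Kif20a* and *Kif23*, motors of the midzone, had 5 and 533 UMIs and 67 and 717 UMIs. *Anln* (anillin, a scaffold of the contractile ring) had 1 and 596 UMIs, and *Ect2*, which activates RhoA at the ring, had 6 and 350. *Kif23* had the smallest ratio of these, 3.18 (2.82 to 3.57), and *Anln* the largest, 8.40 (6.50 to 14.29).

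Genes of chromosome structure had the smallest ratio of any role, 139.8 CPM on day 1 and 576.4 CPM on day 3, a log2 ratio of 2.04 (2.0 to 2.09). They made up 67.6% of the mitosis gene UMIs of this class on day 1 and 31.6% on day 3. *Hmgb2*, a chromatin protein that is abundant in dividing cells and also found in cells at rest, had 3390 UMIs (104 CPM) on day 1 and 7677 (201 CPM) on day 3, a ratio of 0.95 (0.89 to 1.01) that ranged from 0.74 to 1.16 over the alternative settings. *Hmgb2* alone held 50.3% of the mitosis gene UMIs on day 1 and 11.0% on day 3. Without it the sum was 103 CPM on day 1 and 1623 CPM on day 3, a log2 ratio of 3.98 (3.93 to 4.03).

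*Top2a*, the topoisomerase that untangles sister chromatids, had 93 and 4541 UMIs, or 2.86 and 119 CPM, a log2 ratio of 5.37 (5.08 to 5.69). *Mki67*, the protein that coats mitotic chromosomes, had 140 and 3614 UMIs, or 4.30 and 94.5 CPM, a ratio of 4.45 (4.21 to 4.71). *Smc2* and *Smc4* are the paired core subunits of condensin. Their counts differed, with 191 and 3228 UMIs for *Smc2* and 740 and 2993 for *Smc4*. The log2 ratio was 3.84 (3.64 to 4.06) for *Smc2* and 1.78 (1.67 to 1.90) for *Smc4*, so the subunits of 1 complex had ratios whose intervals did not overlap.

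**Figure D2:**
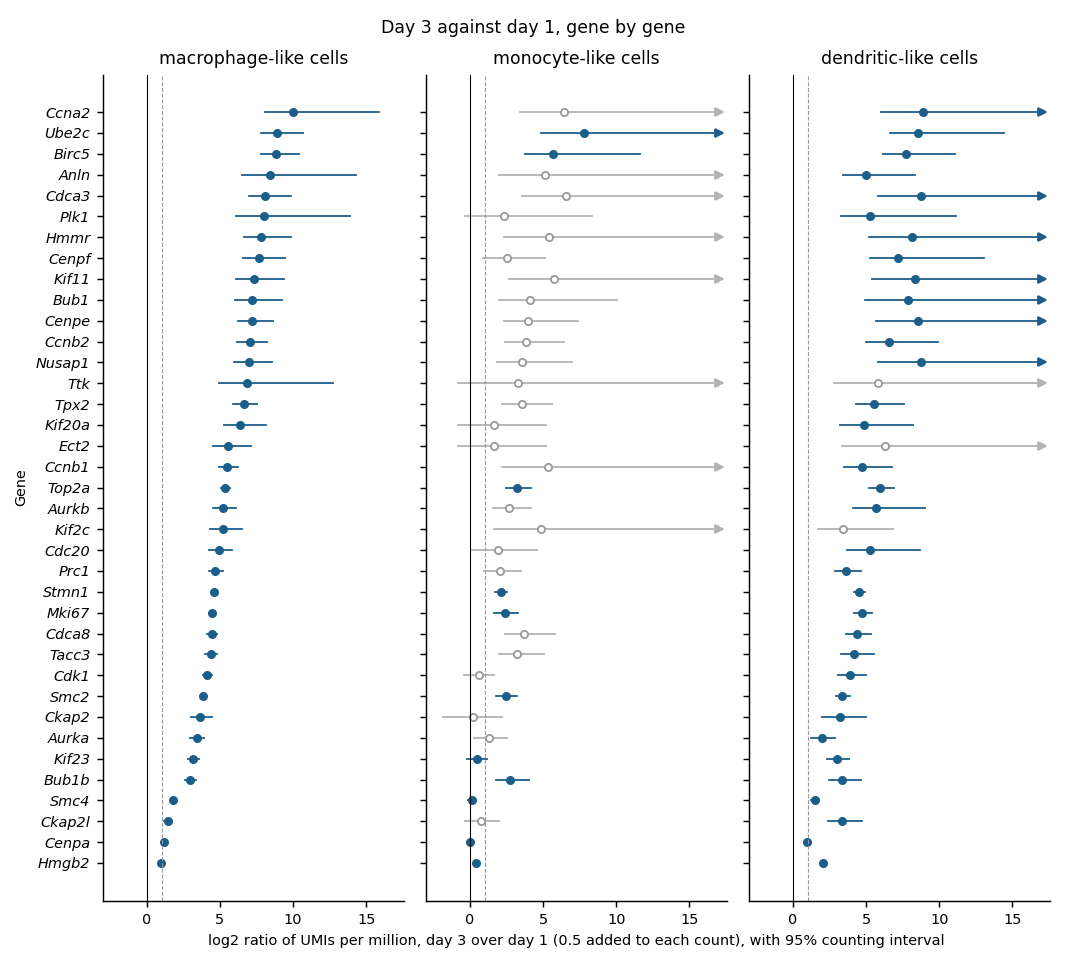
Log2 ratio of CPM, day 3 over day 1, for each mitosis gene in macrophage-like, monocyte-like and dendritic-like cells, with 95% counting intervals. Filled points had at least 50 UMIs in the class over both days, open grey points had fewer, arrows mark genes with 0 UMIs on day 1, and the dashed line is a 2-fold difference, which 36 of the 37 genes passed in macrophage-like cells.

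The macrophage-like class was made of different clusters on the different days. On day 1 it was mostly a *Serpinb2*-led cluster (1457 cells of day 1, 8 of day 3) and a *Ppbp*-led cluster (1183 and 12). On day 3 it was a *Fcrls*-led cluster (65 and 1484) and a *Gpnmb*-led cluster (3 and 663). The *Serpinb2*-led cluster was the least firmly named, with 3 of 14 macrophage markers raised, the fewest allowed, against 5 to 9 in the others. With each library clustered separately, day 1 gave 1223 macrophage-like and 1665 unnamed cells, against 2708 and 633 here. On day 1 the mitosis genes summed to 207 CPM in the *Serpinb2*-led cells and 208 CPM in the *Ppbp*-led cells. The sum on day 3 was 2067 CPM (2048 to 2085) in the *Fcrls*-led cells and 1454 CPM (1435 to 1474) in the *Gpnmb*-led cells. Both day 3 clusters thus lay far above both day 1 clusters. The few cells of each cluster on its other day gave 187 CPM (154 to 223) in the 65 *Fcrls*-led and 203 CPM (74.6 to 442) in the 3 *Gpnmb*-led cells of day 1. On day 3 the sum was 351 CPM (238 to 498) in the 8 *Serpinb2*-led and 1864 CPM (1679 to 2064) in the 12 *Ppbp*-led cells.

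Markers of other cells moved with the day in this class. The neutrophil marker list summed to 1165 CPM on day 1 and 128 CPM on day 3, the stromal list to 31.9 and 111 CPM, and the myogenic list to 0.215 and 3.27 CPM, against 1618 CPM in myogenic-like cells of day 3. The macrophage list itself summed to 16024 and 16376 CPM. The part of cells or RNA of these other types in the mitosis gene levels was not tested beyond the following estimate. Barcodes with at most 100 UMIs, which hold mostly RNA from outside cells, had 199 CPM of mitosis genes on day 1 and 1586 CPM on day 3. From collagen and decorin UMIs such RNA was estimated at 2.13% of the UMIs of macrophage-like cells on day 1 and 1.73% on day 3, with 0.677% and 1.28% in monocyte-like cells and 0.785% and 1.20% in dendritic-like cells. With it subtracted, the log2 ratio of the macrophage-like sum was 3.15 and 36 genes were still at least 2-fold higher.

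A sum over cells does not say how many cells carry it. To compare cells at equal depth, each was thinned at random to 3000 UMIs, which left out, as too shallow, 105 macrophage-like cells from the first library and 44 from the other. A cell with UMIs of at least 5 of the 37 genes is called mitosis-rich here. On day 1, 0 of 2603 macrophage-like cells were mitosis-rich, which allows a share of up to 0.115%. On day 3 there were 363 of 2123, or 17.1% (15.5 to 18.8). Without thinning the shares were 1.48% and 40.7%. The day 3 share was 18.1% (16.1 to 20.2) in the *Fcrls*-led cluster and 15.2% (12.5 to 18.1) in the *Gpnmb*-led cluster, and these intervals overlap.

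The number of mitosis genes per cell spread widely on day 3. Of the macrophage-like cells, 32.5% had none of them, 28.2% had 1, and 4.95% had 15 or more, with a highest number of 26. On day 1, 56.2% had none and the highest number was 4. The mitosis-rich cells of day 3 held 75.4% of all mitosis gene UMIs of the class after thinning. Mitosis-rich cells had more UMIs before thinning than cells with none of the genes, medians of 23893 and 14473. Their median Scrublet score, which is high for likely doublets, was 0.0514 against 0.0437. The part of depth or doublets in the count of mitosis-rich cells was not tested beyond the thinning and the removal of high-scoring cells.

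Mature neutrophils do not divide, so neutrophil-like cells served as the background for shares of cells. On day 1, 0 of 296 neutrophil-like cells deep enough to thin were mitosis-rich, which allows a share of up to 1.01%. On day 3 only 24 of the 253 neutrophil-like cells were deep enough, and 9 of them (37.5%, 18.8 to 59.4) were mitosis-rich. Before thinning the shares were 0% and 5.53%, at medians of 2156 and 1620 UMIs. Markers of other cells were also found in the neutrophil-like class of day 3. It had 28149 CPM of neutrophil markers on day 3 against 87938 on day 1, and 5007 CPM of macrophage markers against 489, and its mitosis-rich cells had a median Scrublet score of 0.112 against 0.0238 in those with none. The day 3 share of macrophage-like cells did not exceed this neutrophil-like share, which rests on the 24 cells. It was above the 1.61% (0.776 to 2.95) of monocyte-like cells, which were not the chosen background. In summed UMIs, neutrophil-like cells of day 3 had 1229 CPM of mitosis genes against 1823 CPM in macrophage-like cells.

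**Figure D3:**
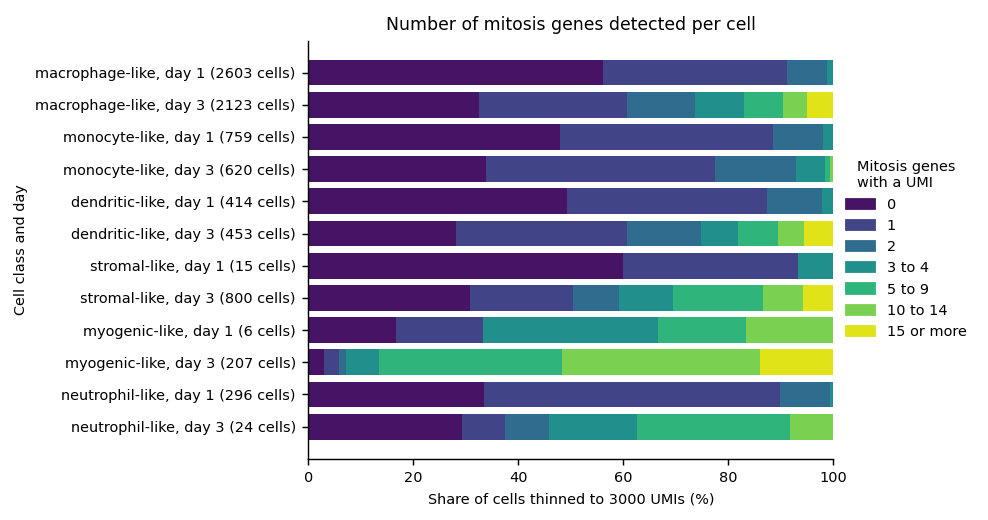
Stacked bars of the share of cells (%) by the number of the 37 mitosis genes with a UMI, after thinning each cell to 3000 UMIs, for 6 cell classes and both days, with the number of cells beside each bar. Macrophage-like cells with 5 or more genes are absent on day 1 and make up 17.1% on day 3, and myogenic-like cells of day 3 have the fewest cells without any of the genes.

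Shares of cells were also taken gene by gene. Among thinned macrophage-like cells, *Mki67* was found in 1.04% on day 1 and 13.1% on day 3, and *Top2a* in 0.807% and 13.5%. *Stmn1* was found in 3.88% and 32.2%. *Hmgb2* was found in 26.0% and 31.1%, and *Cenpa* in 7.80% and 12.6%, so these genes had UMIs in many cells of both days. Among thinned neutrophil-like cells, *Mki67* was found in 0.338% and 16.7%, *Top2a* in 0% and 25%, *Stmn1* in 0.676% and 50%, and *Hmgb2* in 60.1% and 45.8%, with the day 3 shares again resting on 24 cells.

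The genes were found together in the same cells. For each gene, macrophage-like cells of day 3 with UMIs of at least 5 of the other 36 genes were set against cells with none of the others. All 37 genes were more frequent in the former, with intervals that did not overlap. Here and in the other classes below, the same count over all genes was not taken. *Mki67* was found in 57.4% of the former and 1.57% of the latter, *Birc5* in 56.4% and 0.577%, *Top2a* in 56.1% and 3.37%, and *Ccna2* in 39.4% and 0.145%. *Hmgb2* (70.7% and 21.5%), *Stmn1* (89.7% and 13.3%) and *Cenpa* (37.7% and 8.01%) were the genes most often found alone. The intervals did not overlap for 37 genes in stromal-like cells, 33 in dendritic-like cells and 17 in monocyte-like cells, where at most 10 cells had 5 of the other genes, and for 3 in myogenic-like cells, where at most 7 had none.

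**Figure D4:**
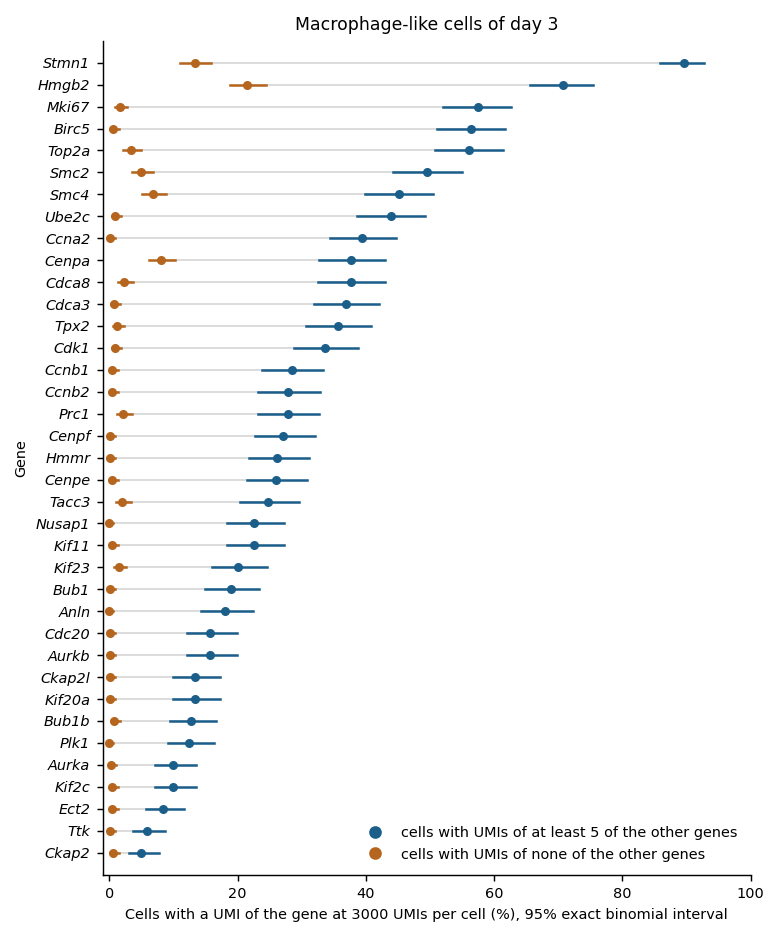
Share of macrophage-like cells of day 3 (%), thinned to 3000 UMIs, with a UMI of each mitosis gene, with 95% exact binomial intervals. Blue points are cells with UMIs of at least 5 of the other genes and brown points are cells with none of the others, and blue lies to the right of brown for all 37 genes.

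Mitosis was crossed with DNA replication through a list of 28 replication genes. Of the 363 mitosis-rich macrophage-like cells, 278 (76.6%) also had UMIs of at least 3 replication genes, against 15.1% of the cells with no mitosis gene. Another 448 cells had at least 3 replication genes and were not mitosis-rich. Over the 2167 macrophage-like cells of day 3, the non-members whose log-normalized level correlated most with the summed mitosis genes were *Pclaf* (Pearson's r = 0.788), *Racgap1* (0.710), *Cks1b* (0.697), *H2afz* (0.694), *Spc24* (0.670), *Tk1* (0.668), *Tmpo* (0.641), *Pbk* (0.639), *Ncapg* (0.633) and *Spc25* (0.629). These are descriptions across cells of 1 library, which share depth and outside RNA. *Pclaf* and *Tk1* act in DNA synthesis, and *Racgap1*, *Spc24*, *Spc25* and *Ncapg* in cytokinesis, kinetochores and condensin.

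Other genes of the cell cycle gave the setting in macrophage-like cells. Of 47 further mitosis genes, 43 were at least 2-fold higher on day 3 and 0 lower, against 29.0% and 5.83% of all genes, with a median log2 ratio of 5.90. In these lists too a gene could pass the filter through day 3 alone. The highest were *Pbk*, *Sgo2a* and *Ska1*, each with 0 UMIs on day 1 and with at least 227-fold, 122-fold and 87.1-fold more on day 3 against a floor of 3 UMIs. The lowest were *Zwint* (0.36), *Cks2* (0.50) and *Bub3* (0.62). Of the 28 replication genes, 26 were at least 2-fold higher, with a median of 3.51. They ran from *Pclaf* at 8.89, *Dut* at 5.81 and *Tk1* at 5.68 down to *Fen1* at 1.62, *Cdt1* at 0.97 and *Slbp* at 0.09.

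Of 26 tested regulators of the cycle, 13 were at least 2-fold higher and 1 was lower, against 29.0% and 5.83% of all genes. Their median log2 ratio was 1.16. *E2f7*, a repressor of the E2F family, had 0 UMIs on day 1 and was at least 46.3-fold higher on day 3, *Ccne2* (cyclin E2) had a log2 ratio of 5.98 and *Mybl2*, which acts with the MuvB complex at promoters of mitosis genes, 5.51. The lowest were *Cdkn1a* (p21, an inhibitor of cyclin-dependent kinases), with 662 CPM on day 1 and 235 CPM on day 3, a ratio of -1.5 (-1.53 to -1.46), *Ccnd2* (cyclin D2) at -0.99 and *Cdkn1b* (p27, a related inhibitor) at -0.54. *Cdkn1a* was thus the 1 regulator at least 2-fold lower on day 3.

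Monocyte-like cells had the smallest difference between days. Their 787 cells of day 1 and 629 of day 3, with medians of 10253 and 9008 UMIs, had 254 CPM (243 to 265) and 469 CPM (452 to 487) of mitosis genes. The log2 ratio was 0.89 (0.80 to 0.97), or 1.27 (1.16 to 1.38) without *Hmgb2*. The class was mostly an *Ifitm6*-led cluster on day 1 (723 cells, and 40 on day 3), and a *Plac8*-led (43 and 361) and an *Ifit2*-led cluster (21 and 228) on day 3. Within the *Plac8*-led cluster the sum was 413 CPM (355 to 478) on day 1 and 365 CPM (344 to 387) on day 3, not higher on day 3. It was 246 CPM (235 to 258) and 464 CPM (399.8 to 535) in the *Ifitm6*-led cluster and 207 CPM (154 to 273) and 606 CPM (575 to 638) in the *Ifit2*-led cluster. Markers of other cells were also seen in this class. On day 1 monocyte markers summed to 2873 CPM, macrophage markers to 4500 CPM and neutrophil markers to 3434 CPM. On day 3 these lists summed to 4728, 5326 and 2178 CPM. The part of cells or RNA of these types in the mitosis gene levels was not tested. Over all 37 genes, 27 had an interval wholly above 0, and the same count over all other genes was not taken. Only 11 genes reached 50 UMIs over both days, and a gene could reach them through day 3 alone. Of these 11, 7 were at least 2-fold higher and 0 lower, with a median of 2.40, while 15.7% of the 8580 genes tested in this class were higher, 2.6% were lower and the median was 0.28.

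*Hmgb2* had 131 CPM on day 1 and 174 CPM on day 3 in monocyte-like cells, a log2 ratio of 0.40 (0.28 to 0.53). *Cenpa* had 61.5 and 60.2 CPM (-0.03, -0.23 to 0.17) and *Smc4* had 28.1 and 31.3 CPM (0.16, -0.13 to 0.44). These carried most of the sum and differed little between days. *Mki67* had 2.06 and 11.1 CPM, a ratio of 2.40 (1.65 to 3.30), *Top2a* had 1.69 and 16.3 CPM (3.23, 2.45 to 4.19), and *Birc5* had 0.121 and 9.42 CPM (5.71, 3.75 to 11.61). *Ube2c* had 0 UMIs on day 1 and 78 on day 3, at least 36.2-fold more. *Cdk1* had 2.06 and 3.20 CPM, and its interval of -0.39 to 1.67 held 0. *Ccnb1* had 0 and 14 UMIs, *Cdc20* had 0.363 and 1.51 CPM, and *Stmn1* had 8.59 and 37.2 CPM.

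After thinning, 0 of 759 monocyte-like cells of day 1 were mitosis-rich, which allows up to 0.395%, and 10 of 620 of day 3 were, or 1.61% (0.776 to 2.95). Without thinning the shares were 0.508% and 6.68%. Of the 10 cells, 8 came from the *Ifit2*-led cluster, where interferon-induced genes lead and where 8 of 227 thinned cells were mitosis-rich (3.52%, 1.53 to 6.83). The *Plac8*-led cluster, the largest of day 3, had 0 of 354, which allows up to 0.847%. Without the *Ifit2*-led cluster the class had 255 CPM on day 1 and 376 CPM on day 3, a log2 ratio of 0.56, and 3 of the 7 genes that passed the filter were at least 2-fold higher, against 10.9% of the 8019 genes tested. On day 3 the monocyte-like sum was 3.89-fold lower than the macrophage-like sum (log2 -1.96, -2.01 to -1.90). All 37 genes had an interval below the macrophage level, and the same count over all genes was not taken.

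Dendritic-like cells also had far more mitosis gene UMIs on day 3. Their 424 cells of day 1 and 461 of day 3, with medians of 11394 and 9873 UMIs, formed 1 cluster on both days, led by *H2-Eb1*. All 12 dendritic markers were seen on both days, with 829.8 and 894 CPM in sum, but the 14 macrophage markers, which these cells also held, summed to 6744 and 6035 CPM, against 16024 and 16376 CPM in macrophage-like cells. Neutrophil markers summed to 1378 and 151 CPM. The part of cells or RNA of these types in the result was not tested. The sum was 232 CPM (219 to 245) on day 1 and 2118 CPM (2079 to 2157) on day 3, a log2 ratio of 3.19 (3.11 to 3.28). Of 34 genes with at least 50 UMIs, 33 were at least 2-fold higher, with a median of 4.90, against 15.4% of the 8618 genes tested, whose median was 0.27. Lower were 0 genes, against 3.56%. A gene could pass this filter through day 3 alone, and 7 of the 34 had 0 UMIs on day 1. *Ect2*, *Ttk* and *Kif2c* were too rare to be tested. The interval lay above 0 for all 37 genes, and the same count over all genes tested was not taken.

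*Mki67* had 4.23 CPM on day 1 and 114 CPM on day 3 in dendritic-like cells, a log2 ratio of 4.72 (4.15 to 5.42). *Top2a* had 2.39 and 153 CPM (5.95, 5.22 to 6.92), and *Birc5* had 0.368 and 96.1 CPM (7.71, 6.17 to 11.08). *Cdk1* had 2.02 and 31.5 CPM, *Ccnb1* had 0.736 and 21.9 CPM, *Cdc20* had 0.368 and 17.6 CPM, and *Stmn1* had 12.7 and 293 CPM. *Ccna2*, *Nusap1* and *Cdca3* had 0 UMIs on day 1 and were at least 79.9-fold, 70.7-fold and 70.4-fold higher on day 3. The smallest ratios were those of *Cenpa* (59.1 and 115 CPM, 0.96), *Smc4* (30.9 and 87.0 CPM, 1.49) and *Aurka* (2.94 and 11.8 CPM, 1.97). *Hmgb2* had 91.6 and 387 CPM, a ratio of 2.08 (1.94 to 2.22), and on day 3 it was higher than in macrophage-like cells by 0.95 (0.88 to 1.02) on the log2 scale.

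No thinned dendritic-like cell of day 1 was mitosis-rich (0 of 414, which allows up to 0.725%), and 82 of 453 of day 3 were, or 18.1% (14.7 to 22.0). Without thinning the shares were 1.89% and 30.8%. The mitosis-rich cells held 79.4% of the mitosis gene UMIs of the class, and their median depth before thinning was 15612 UMIs against 9550 in cells with none. The day 3 sum was close to that of macrophage-like cells, higher by 0.22 (0.19 to 0.24) on the log2 scale, with 10 genes above and 6 below. These counts were not taken over all genes.

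Stromal-like cells were named in a *Sfrp2*-led cluster that had 15 cells on day 1 and 818 on day 3, with medians of 8225 and 26218 UMIs. The sum was 141 CPM (95.1 to 201) on day 1 and 2157 CPM (2138 to 2175) on day 3, a log2 ratio of 3.91 (3.42 to 4.50). The 15 cells gave 0 UMIs for 27 of the 37 genes, with a floor of 14.1 CPM, and RNA from outside cells was estimated from neutrophil genes at 23.5% of their UMIs, against 2.74% on day 3. Stromal markers summed to 14691 CPM on day 1 and 24905 CPM on day 3, while tenocyte markers summed to 5811 and 305 CPM, macrophage markers to 5647 and 2009 CPM and neutrophil markers to 2217 and 105 CPM. The part of cells or RNA of these types in the day difference was not tested. All 37 genes passed the filter through day 3, and all 37 had a fitted ratio of at least 2-fold, with a median of 3.71. With the genes at 0 set to the floor, 26 were at least 2-fold higher and the median was 1.92. Among the 11681 genes tested in this class, 16.2% were at least 2-fold higher and 16.0% lower, with a median of -0.01. An interval above 0 was found for 31 of the 37, and the same count over all genes was not taken.

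*Mki67* had 0 UMIs in the 15 cells and 95.7 CPM on day 3, at least 6.79-fold higher. *Birc5* (114 CPM, at least 8.07-fold), *Ube2c* (106 CPM, at least 7.53-fold), *Cdk1* (58.5 CPM, at least 4.15-fold), *Cdc20* (43.1 CPM, at least 3.06-fold) and *Ccnb1* (35.6 CPM, at least 2.52-fold) were also at 0 on day 1. *Top2a* had 4.70 and 129 CPM, with 1 UMI on day 1, a ratio of 4.20 (2.30 to 10.09). *Stmn1* had 23.5 and 193 CPM (2.90, 1.81 to 4.66) and *Hmgb2* 70.5 and 218 CPM (1.58, 0.90 to 2.47). The lowest were *Hmgb2*, *Kif23* (1.67, -0.23 to 7.56) and *Ckap2* (1.98, 0.08 to 7.87), so the day 1 level of single genes was poorly set by 15 cells.

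A *Cxcl5*-led cluster of 633 cells of day 1 and 6 of day 3 stayed unnamed. Stromal markers were its highest list, and *Thbs4*, a tenocyte marker, was among its leading genes. With 20 principal components 642 cells of day 1 were named tenocyte-like, and with each library clustered separately 640 were named stromal-like. How far those cells overlap this cluster was not counted. Counting the *Cxcl5*-led cluster as stromal-like, a choice made after seeing the data, gave 648 cells on day 1 and 824 on day 3. They had 179 and 2157 CPM, a log2 ratio of 3.59. All 37 genes were then at least 2-fold higher, with a median of 4.60, against 23.2% of the 12303 genes tested, whose median was 0.30. *Mki67* had 2.12 and 95.6 CPM (5.48, 5.05 to 5.98), *Birc5* had 2.33 and 113 CPM (5.59, 5.18 to 6.07), and *Cdc20* had 2.07 and 43.5 CPM (4.38, 3.93 to 4.90). *Hmgb2* had 55.0 and 218 CPM (1.98, 1.89 to 2.08). The largest ratios were those of *Hmmr* (7.27) and *Cdca3* (7.09) and the smallest that of *Smc2* (28.0 and 84.0 CPM, 1.58).

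After thinning, 0 of 15 stromal-like cells of day 1 were mitosis-rich, which allows up to 20%, and 244 of 800 of day 3 were, or 30.5% (27.3 to 33.8). Without thinning the shares were 0% and 61.0%. With the *Cxcl5*-led cells the day 1 share was 3 of 647, or 0.464% (0.0957 to 1.35), and the day 3 share was 30.6% (27.4 to 33.9). The day 3 share was higher than in macrophage-like cells, 17.1% (15.5 to 18.8), although both sums were close (log2 difference of 0.24, 0.23 to 0.26). Of the 37 genes, 29 were above the macrophage level with their interval and 1 below. That gene was *Stmn1*, lower by 0.66 (log2 difference of -0.66, -0.71 to -0.61). These counts were not taken over all genes. *Cdc20* was higher by 1.60 (1.45 to 1.75), *Ckap2* by 1.96 (1.76 to 2.17) and *Anln* by 1.35 (1.20 to 1.5), while *Mki67* differed by 0.02 (-0.06 to 0.09). The median depth was 26218 UMIs against 16423, whose part in the unthinned difference was not tested.

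Myogenic-like cells, a *Ttn*-led cluster, had the highest levels on both days, but day 1 held only 6 of them, against 207 on day 3, with medians of 32744 and 43658 UMIs. The sum was 1783 CPM (1605 to 1976) on day 1 and 5338 CPM (5290.0 to 5385) on day 3, a log2 ratio of 1.58 (1.43 to 1.73). All 37 genes passed the filter, as a gene could through day 3 alone, and 33 were at least 2-fold higher with a median of 2.11. With the 5 genes at 0 on day 1 set to the floor, 32 were at least 2-fold higher with a median of 1.90. Of the 8896 genes tested, 21.8% were at least 2-fold higher and 7.58% lower, with a median of 0.12. The interval was above 0 for 35 of the 37 genes, and the same count over all genes was not taken.

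*Mki67* had 34.3 and 174 CPM in myogenic-like cells, a log2 ratio of 2.24 (1.29 to 3.66). *Top2a* had 39.2 and 372 CPM (3.16, 2.27 to 4.46), *Birc5* had 53.9 and 263 CPM (2.22, 1.44 to 3.29), and *Cdk1* had 63.7 and 171 CPM (1.37, 0.65 to 2.34). *Ccnb1* had 34.3 and 117 CPM and *Cdc20* had 53.9 and 117 CPM. *Bub1b* (54.7 CPM on day 3, at least 3.72-fold higher), *Kif23* (51.9 CPM, at least 3.53-fold) and *Plk1* (50.1 CPM, at least 3.41-fold) were at 0 on day 1. *Stmn1* had 421 and 531 CPM (0.33, 0.03 to 0.66), *Smc2* 118 and 198 CPM (0.72, 0.17 to 1.4), *Cdca8* 63.7 and 124 CPM (0.91, 0.18 to 1.88) and *Hmgb2* 411 and 793 CPM (0.94, 0.64 to 1.27). *Stmn1* was thus high already in the 6 cells of day 1.

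Of the thinned myogenic-like cells, 2 of 6 on day 1 (33.3%, 4.33 to 77.7) and 179 of 207 on day 3 (86.5%, 81.1 to 90.8) were mitosis-rich, and without thinning 83.3% and 99.0%. The day 1 share rests on 6 cells, and its interval spans most of the scale below the day 3 interval. On day 3 the sum was 2.93-fold higher than in macrophage-like cells. Each of the 37 genes was highest in myogenic-like cells among the 5 classes described here. Each was thus also above the macrophage level, and these counts were not taken over all genes. The difference ran from 0.71 (0.53 to 0.88) on the log2 scale for *Nusap1* and 0.80 (0.75 to 0.85) for *Stmn1* to 3.04 (2.89 to 3.20) for *Cdc20*, and *Anln* (2.65, 2.49 to 2.80) and *Ckap2* (2.37, 2.13 to 2.61) were also far above. The replication genes differed from the mitosis genes in this class, with 4 of 28 at least 2-fold higher, 2 lower and a median of -0.35, while 36 of 47 further mitosis genes were higher. Of all genes tested in the class 21.8% were higher, so the share of replication genes was no larger than that of all genes.

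In the other classes the further lists were counted the same way, and the shares of all genes given above for each class are repeated beside the counts. Of the further mitosis genes, 30 of 34 tested were at least 2-fold higher in dendritic-like cells, against 15.4% of all genes, and 2 of 8 in monocyte-like cells, against 15.7%. The replication genes gave 24 of 27 and 14 of 20. Regulators gave 10 of 23 in dendritic-like cells, 6 of 18 in monocyte-like cells and 10 of 26 in myogenic-like cells, the last against 21.8%. In stromal-like cells the counts were 33 of 47, 20 of 28 and 11 of 27, with 6 regulators lower, against 16.2% of all genes higher and 16.0% lower, and all of them rest on the 15 cells of day 1.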

How the data were processed

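Gene counts of UMIs were measured in 1 library per day. The authors deposited unnormalized counts for each gene in every barcode of the kit's list, cells and empty droplets alike. The submitters' processing notes name Cell Ranger 5.0.0 and mm10, while the file headers name another Cell Ranger version, and the labels give the 3.1 chemistry for both days. The counting of reads from introns is not given in the sources used here.

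The barcodes with the most UMIs, up to the number of cells that the study gives for each library, were taken as cells if they had at least 1000 UMIs, 200 genes and at most 7.5% mitochondrial UMIs. Doublets were kept, since the automatic Scrublet threshold marked 2 cells of day 1 and 0 of day 3. An alternative removed the 363 and 171 cells with the highest scores. SCTransform normalization and clustering (R 4.3.3, Seurat 5.3.0, sctransform 0.4.2, 3000 variable features, 10 PCs, resolution 0.8) regressed out the S minus G2M score and the mitochondrial share. Mitosis genes, cell cycle genes and naming markers were left out of the variable features. Clusters were named from marker lists (at least 3 markers), and a cluster whose leading genes went against its name stayed unnamed.

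Levels are UMIs summed over the cells of a class, scaled to 1000000 UMIs of the class (CPM), with exact Poisson intervals. CPM of 3′ UMIs is not scaled by gene length, so UMIs of different genes are set side by side as counts and not as levels per length. Before a log2 ratio was taken 0.5 was added to the counts, and its interval is exact binomial. Shares have Clopper-Pearson intervals. Ratios were read as higher or lower from 2-fold, among genes with at least 50 UMIs in the class over both days. A count of 0 was given a floor of 3 counts, of UMIs or, for shares, of cells, in place of the Clopper-Pearson limit. Interval and floor cover counting error only. Python 3.11.15, numpy 2.4.6, scipy 1.17.1, pandas 2.3.3, scanpy 1.11.5 and matplotlib 3.10.9 were used, and the ratio script was tested on simulated data.

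Every mitosis gene is given in macrophage-like cells. In the other classes the genes named are *Mki67*, *Top2a*, *Cdk1*, *Ccnb1*, *Cdc20*, *Birc5*, *Stmn1* and *Hmgb2*, with the 3 highest and 3 lowest ratios among genes past the filter. The 3 highest and 3 lowest of each further list and the 10 non-members most correlated with the sum are also named. *Ube2c* in stromal-like cells, the genes named for the *Cxcl5*-led cluster and those compared between classes on day 3 were chosen after their values were seen. The members and all lists were chosen with earlier results of these data known. Alternatives changed 1 choice at a time: the mitochondrial limit, doublet removal, PCs, resolution, variable features, separate clustering, naming by marker score, outside RNA, thinning depth and the number of genes that makes a cell mitosis-rich. Samples other than these libraries were not used here.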

Additional observations from a re-analysis of the deposited data

Results flagged for a closer look

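Cells over the mitochondrial limit entered no comparison above, and they carried the mitosis genes too. The 277 such cells of day 1 had 293 CPM (257 to 332) of the 37 genes. Those of day 3, 1804 cells, had 1868 CPM (1841 to 1895). Barcodes with at most 100 UMIs had 199 CPM on day 1 and 1586 CPM on day 3. The part of RNA from outside cells in these levels was not tested. The cells that were kept had 228 CPM and 2225 CPM. After thinning to 3000 UMIs, 1 of 93 cells over the limit on day 1 (1.08%) and 163 of 779 on day 3 (20.9%, 18.1 to 24.0) had UMIs of at least 5 mitosis genes. These cells were shallow, with medians of 2349 and 2507 UMIs, and they were not assigned to a class.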

How the results depend on the processing

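No paired analysis was possible because each day had its own mice, pooled. Each main result, a count of genes or a share of cells in a class, was recomputed under 9 to 11 alternatives, and of these values 85 stayed within their limits, 17 moved and none reversed. The count of genes at least 2-fold higher on day 3 ran from 35 to 37 in macrophage-like cells, 28 to 33 in dendritic-like, 28 to 37 in stromal-like and 31 to 36 in myogenic-like cells. In monocyte-like cells, where 7 of 11 were higher, it was 22 of 26 with a mitochondrial limit of 15%, 11 of 15 with 20 PCs, 2 of 6 at resolution 0.4, 12 of 16 with each library clustered separately, 18 of 22 with cells named by their highest marker score and 3 of 7 without the *Ifit2*-led cluster. The count moved with how many genes reached 50 UMIs, and 4 tested genes were not higher under each of these settings. The log2 ratio of the sum was not counted in the 85 and 17. It ran from 2.71 to 3.35 in macrophage-like and from 0.36 to 1.22 in monocyte-like cells. The range was 2.77 to 3.52 in dendritic-like, 2.96 to 4.31 in stromal-like and 1.42 to 2.03 in myogenic-like cells. This ratio moved in 5 of 10 alternatives in macrophage-like, 9 of 11 in monocyte-like and 4 of 10 in dendritic-like cells. In stromal-like cells it moved in 2 of 11 and in myogenic-like cells in 3 of 9. The share of mitosis-rich cells, day 3 minus day 1, in macrophage-like cells (17.1 percentage points) was 20.5 with doublets removed, 18.9 by marker score, 11.7 after thinning to 1500 UMIs and 25.1 with 3 genes enough. In monocyte-like cells (1.61) it was 3.33 at the 15% limit, 0.270 at resolution 0.4, 0.509 without the *Ifit2*-led cluster and 5.12 with 3 genes enough. In dendritic-like cells (18.1) it was 11.5 at 1500 UMIs and 23.0 with 3 genes enough, and in stromal-like cells (30.5) 34.2 with 3 genes enough, 17.1 at 1500 UMIs and 14.2 with each library clustered separately. In myogenic-like cells (53.1), with 6 cells on day 1, it ran from 26.1 to 64.1. At 1500 UMIs each cell keeps fewer UMIs and shallower cells are let in. The part of each in the fall was not tested. Removing doublets left 890 cells of day 3 unnamed, with 1254 macrophage-like. Clustered separately, day 1 gave no myogenic-like cells, so that value was not run. The 6 myogenic-like and 15 stromal-like cells of day 1 limit every ratio in these classes.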

Other observations

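Cells of a *Cldn5*-led cluster named endothelial-like, 86 on each day, had 268 CPM (230.1 to 311) of the mitosis genes on day 1 and 3488 CPM (3327 to 3656) on day 3. After thinning, 0 of 59 cells on day 1, which allows up to 5.08%, and 11 of 53 on day 3 (20.8%) had UMIs of at least 5 of the genes. The cluster was mixed. Endothelial markers summed to 3795 CPM on day 1 and 1745 CPM on day 3, macrophage markers to 4105 and 1861 CPM, T/NK markers to 181 and 1414 CPM, and erythroid markers to 2540.1 and 5.98 CPM. With each library clustered separately, day 3 gave 58 T/NK-like and 0 endothelial-like cells. The part of these cell types in the difference was not tested. In neutrophil-like cells *Hmgb2* had 354 CPM on day 1 and 286 CPM on day 3, a log2 ratio of -0.30, while the mitosis genes without *Hmgb2* had 80.5 and 943 CPM.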
